A study of Mus musculus with 7 samples.

Results

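The genes described here are 42 genes of the cellular defence against oxidants. They were taken by symbol from a list of superoxide dismutases and catalase (4 genes), glutathione peroxidases (5), peroxiredoxins (6), thioredoxins and their reductases (4), glutaredoxins (4), enzymes of glutathione synthesis and reduction (4), glutathione transferases (10), and the regulators NRF2 and KEAP1 with 3 oxygenase and quinone reductase genes (5). All 42 were found among the 24346 genes of the expression table, and all 42 had a mean of at least 1 FPKM (fragments mapped to a gene, divided by transcript length and by library size), the level required for testing, which 12988 genes reached. RNA was sequenced from the cerebral cortex of 4 CrT-/y and 3 CrT+/y male mice, 1 library per animal. *Slc6a8*, the X-linked creatine transporter gene, lacks exons 5 to 7 in every cell of CrT-/y mice, and CrT+/y mice are their wild-type littermates. Both groups were on a C57BL/6J background, were untreated and were taken at postnatal day 100. The question of the comparison was how loss of creatine uptake alters cortical gene expression.

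Oxidant defence works as a chain. Superoxide dismutases turn superoxide into hydrogen peroxide, which catalase, glutathione peroxidases and peroxiredoxins then reduce to water. Glutathione and thioredoxin supply the electrons and are themselves restored by reductases that use NADPH. Many of these genes are induced by the transcription factor NRF2, encoded by *Nfe2l2*, which KEAP1 marks for degradation in unstressed cells and which binds a short promoter sequence called the antioxidant response element. In brain, astrocytes are known for a high glutathione content and a strong NRF2 response.

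In CrT-/y cortex, 2 of the 42 genes rose and 4 fell (limma on log2 FPKM, Benjamini-Hochberg adjusted p under 0.1 over all tested genes). *Gstk1*, a mitochondrial and peroxisomal glutathione transferase, rose by 48.5% in mean FPKM, and *Txn1*, the cytosolic thioredoxin, by 35.3%. The genes that fell were *Gpx7* (mean FPKM lower by 31.9%), *Sod3* (26.4%), *Glrx3* (18.8%) and *Sod2* (12.7%). The 6 calls were 14.3% of the list, and 10.1% of all tested genes were called, so the share was near the background. By direction, 2.90% of all tested genes rose and 7.25% fell. Since the tissue was sequenced in bulk, fewer cells of a type and less RNA per cell cannot be told apart for any of these genes. The median log2 fold change (CrT-/y minus CrT+/y) of the 42 genes was 0.05, against -0.03 over all tested genes, with 23 genes above and 19 below the CrT+/y mean. The 36 genes that were not called had log2 fold changes between -0.31 and 0.42. In 8 genes (19.0%) the FPKM of the groups did not overlap, against 21.6% of all tested genes. CrT-/y was above CrT+/y in 4 of them (6.57% of all tested genes) and below in 4 (15.0%). Of the 6 calls, *Gstk1* alone was still made when any 1 of CrT-/y replicate 1, CrT-/y replicate 2 or CrT+/y replicate 1 was left out, 2 were made without CrT+/y replicate 2 (*Gstk1* and *Glrx3*), 3 without CrT-/y replicate 3 (these and *Gpx7*), 4 without CrT-/y replicate 0 (*Gstk1*, *Txn1*, *Glrx3* and *Sod2*), and all 6 among 20 without CrT+/y replicate 3.

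**Figure D1:**
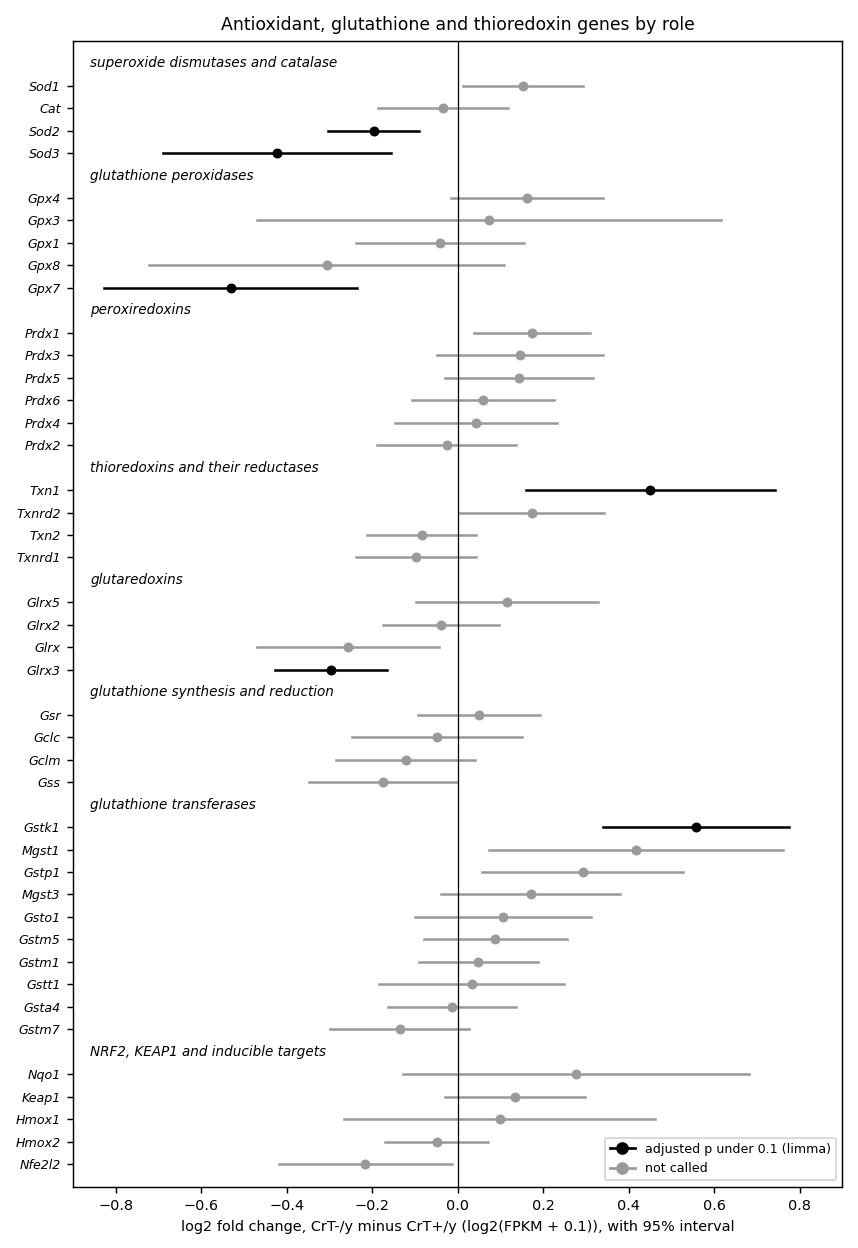
Log2 fold change of FPKM (CrT-/y minus CrT+/y, x axis) of the 42 genes by role, with bars for the 95% confidence interval of limma. *Gstk1* and *Txn1* lie on the higher side and *Gpx7*, *Sod3*, *Glrx3* and *Sod2* on the lower side among the called genes, and the other 36 lie between -0.31 and 0.42.

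*Slc6a8* had 12.4 to 15.7 FPKM in CrT-/y and 28.0 to 32.3 FPKM in CrT+/y animals (log2 fold change -1.05, limma adjusted p = 0.00238). The libraries' depth, estimated from the step that 1 fragment is worth among low genes, ranged from 0.871 to 1.25 times that of CrT-/y replicate 0. Over all genes, 28.6% of the 1318 calls were higher in CrT-/y, and this share was 48.8% after quantile normalization, 48.2% after median centring and 61.5% after upper quartile scaling. Markers of cortical excitatory neurons summed to 1540 to 1672 FPKM in CrT-/y and 1553 to 1894 FPKM in CrT+/y animals, and none of the markers was at 0. Markers of olfactory bulb summed to 5.95 to 16.3 FPKM in CrT-/y and 2.91 to 5.24 FPKM in CrT+/y animals, with no overlap, and those of striatum to 132 to 327 FPKM and 75.2 to 284 FPKM. Choroid plexus and ependyma markers stood at 408 FPKM in CrT+/y replicate 2 and at 9.42 to 57.4 FPKM in the other animals.

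The regulators came first in the chain of control. *Nfe2l2* encodes NRF2. Its level was 6.00, 5.62, 6.24 and 5.68 FPKM in CrT-/y replicates 0 to 3 and 7.31, 7.33 and 6.00 FPKM in CrT+/y replicates 1 to 3. CrT+/y replicate 3 lay inside the CrT-/y range while the others lay above it, and the log2 fold change of -0.22 (95% interval -0.42 to -0.01) was not called (limma adjusted p = 0.178). *Keap1*, the adaptor that holds NRF2 in check, was at 23.4 to 25.6 FPKM in CrT-/y and 19.8 to 23.8 FPKM in CrT+/y animals (log2 fold change 0.13, 95% interval -0.03 to 0.30, limma adjusted p = 0.279). The inducible NRF2 targets *Hmox1*, which degrades haem, and *Nqo1*, a quinone reductase, had low levels with overlapping groups. *Hmox1* was at 2.09 to 3.09 FPKM in CrT-/y and 1.88 to 2.58 FPKM in CrT+/y animals (log2 fold change 0.10, 95% interval -0.27 to 0.46), and *Nqo1* at 2.04 to 3.04 and 1.80 to 2.72 FPKM (0.28, -0.13 to 0.68). *Hmox2*, the constitutive haem oxygenase, had the highest level of these 5 genes, at 40.8, 39.6, 40.8 and 41.0 FPKM in CrT-/y and 41.7, 39.8 and 44.5 FPKM in CrT+/y animals. Its log2 fold change of -0.05 (limma adjusted p = 0.602) turned positive after quantile normalization and upper quartile scaling. None of the 5 genes was called.

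The core of the antioxidant response element was searched in the RefSeq promoter windows, 250 bases before to 50 bases after each gene's start (GRCm38.p6), as TGACNNNGC on both strands. It was present in 8 of the 36 listed genes that had a window (22.2%), against 17.0% of tested genes and 14.0% of all genes with a window. *Sod3*, *Prdx6*, *Gclc*, *Gsr*, *Gsta4* and *Hmox1* had no window in the table. The 8 matches are shown because this is the sequence to which NRF2 binds, each in the direction of the motif with the match in capitals and 10 bases on either side, followed by its position on the strand shown.
Prdx1: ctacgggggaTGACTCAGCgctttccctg
Nfe2l2: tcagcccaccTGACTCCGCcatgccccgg
Sod1: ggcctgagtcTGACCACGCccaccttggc
Gclm: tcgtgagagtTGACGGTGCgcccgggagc
Txnrd1: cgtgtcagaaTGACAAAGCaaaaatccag
Mgst1: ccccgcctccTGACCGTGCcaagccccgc
Gstm5: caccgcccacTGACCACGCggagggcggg
Gstm7: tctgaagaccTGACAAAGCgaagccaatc
The stretch shown for *Prdx1* lies at chr4:116685456-116685484 (minus strand), and the end of its motif farther from the start site is 133 bases before that site. In the stretches of *Nfe2l2* (chr2:75704885-75704913, minus), *Sod1* (chr16:90220696-90220724, minus), *Gclm* (chr3:122245413-122245441, minus) and *Txnrd1* (chr10:82859104-82859132, minus), the motifs reach 240, 56, 134 and 92 bases before the start site. In those of *Mgst1* (chr6:138140461-138140489, minus), *Gstm5* (chr3:107895802-107895830, plus) and *Gstm7* (chr3:107931725-107931753, minus), the motifs reach 56, 42 and 129 bases before the start site. These start sites are those of RefSeq and can differ from the GENCODE gene positions used elsewhere. By GENCODE, the stretches of *Txnrd1*, *Mgst1* and *Gstm7* lie inside the gene body, which for *Txnrd1* begins at chr10:82833951 (plus strand). *Sod1* and *Gstm5* share the same 9 letters, as do *Txnrd1* and *Gstm7*. The 8 genes had log2 fold changes from -0.22 (*Nfe2l2*) to 0.42 (*Mgst1*), and none was called. Of the 6 called genes, 5 had a window (*Gstk1*, *Txn1*, *Gpx7*, *Glrx3* and *Sod2*), and these letters were not in those windows.

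Of the superoxide dismutases and catalase, 2 of 4 fell and none rose. *Sod2*, the manganese enzyme of the mitochondrial matrix (chr17:13006846-13040063, plus strand, 5 exons), was at 73.7, 69.4, 71.4 and 70.8 FPKM in CrT-/y and 82.5, 82.4 and 80.4 FPKM in CrT+/y animals. The groups did not overlap, CrT-/y being the lower, with means of 71.3 ± 1.77 (SD, n = 4) and 81.7 ± 1.19 FPKM (SD, n = 3). The log2 fold change of -0.20 ± 0.05 (SE) was called (limma adjusted p = 0.0582, exact two-sided permutation p = 0.0286, the smallest that 4 against 3 animals allow). The call was lost after median centring, quantile normalization and upper quartile scaling (limma adjusted p = 0.101, 0.14 and 0.12), with the direction unchanged. *Sod3*, the secreted extracellular enzyme (chr5:52363791-52371418, plus strand), was at 5.42, 6.44, 5.86 and 5.73 FPKM in CrT-/y and 8.51, 8.96 and 6.40 FPKM in CrT+/y animals. CrT+/y replicate 3 lay just below CrT-/y replicate 1, so the groups overlapped, and the log2 fold change was -0.42 ± 0.12 (SE, limma adjusted p = 0.0787, exact permutation p = 0.0571). The call of *Sod3* was lost after median centring and upper quartile scaling (limma adjusted p = 0.103 and 0.116). Over the 20 alternatives *Sod2* was called in 10 and *Sod3* in 8.

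*Sod1*, the copper and zinc enzyme of the cytosol (chr16:90220754-90226329, plus strand), was the most abundant of the 42 genes. Its level was 351, 336, 317 and 326 FPKM in CrT-/y and 303, 281 and 314 FPKM in CrT+/y animals, the 98.9th percentile of tested genes. The groups did not overlap, but CrT+/y replicate 3 came close to the lowest CrT-/y animal, and the log2 fold change of 0.15 was not called (limma adjusted p = 0.175, exact permutation p = 0.0571). It was called after upper quartile scaling and without CrT+/y replicate 3 (limma adjusted p = 0.0781 and 0.0609), but was 0.06 after the length correction (limma adjusted p = 0.521). *Cat*, the peroxisomal catalase, had overlapping groups and was not called. The summed levels of some cell type markers were also lower in CrT-/y, and no marker of these lists was at 0 in any animal. Endothelial markers summed to 104 to 121 FPKM in CrT-/y and 122 to 140 FPKM in CrT+/y animals, with no overlap. Of these 7 markers 3 fell (*Flt1*, *Pecam1* and *Ly6c1*), *Cldn5*, *Cdh5* and *Tek* were not called (log2 fold changes -0.16, -0.23 and -0.03), and *Slco1a4* lay higher in every CrT-/y animal (0.15, not called). Markers of oligodendrocyte precursors summed to 32.0 to 35.7 FPKM in CrT-/y and 37.5 to 42.3 FPKM in CrT+/y animals, also with no overlap, and 1 of 5 fell (*Olig2*). *Gpr17* lay lower in every CrT-/y animal (log2 fold change -0.38, not called). *Pdgfra*, *Cspg4* and *Vcan* had overlapping groups and were not called (-0.07, -0.11 and 0.06). Astrocyte markers summed to 1110 to 1221 FPKM and 1207 to 1391 FPKM, with 7 of 8 below 0 on the log2 fold change scale and none called. The part of any of these cell types in the falls of *Sod2* and *Sod3* was not tested.

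**Figure D2:**
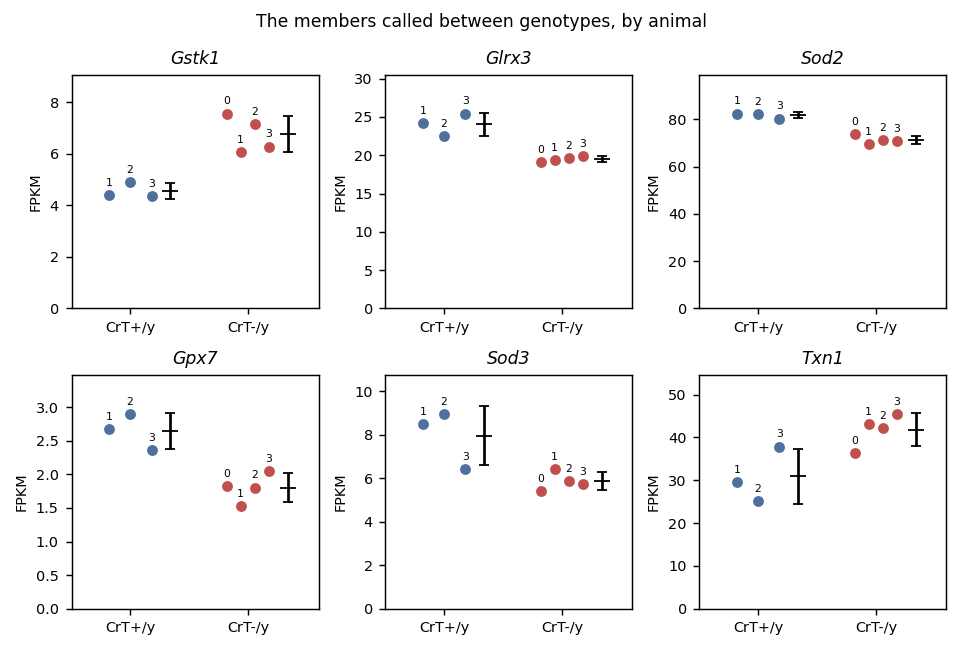
FPKM of the 6 called genes in each animal (y axis, FPKM), with a numbered point for each animal, a short line for the group mean and error bars for SD (4 CrT-/y, 3 CrT+/y). The groups do not overlap for *Gstk1*, *Sod2*, *Gpx7* and *Glrx3*, while CrT+/y replicate 3 falls among the CrT-/y animals for *Txn1* and *Sod3*.

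Of the glutathione peroxidases, *Gpx7* fell and the other 4 were not called. *Gpx7* encodes a peroxidase of the endoplasmic reticulum (chr4:108400390-108406961, minus strand), where peroxide arises from oxidative protein folding. It had the lowest mean level of the list, 1.83, 1.53, 1.80 and 2.05 FPKM in CrT-/y and 2.67, 2.90 and 2.36 FPKM in CrT+/y animals. All CrT-/y animals were below all CrT+/y animals, with a log2 fold change of -0.53 ± 0.13 (SE, limma adjusted p = 0.0608, exact permutation p = 0.0286), called in 11 of 19 alternatives. *Gpx8*, a membrane-bound relative in the same compartment, was at 2.06 to 2.78 FPKM in CrT-/y and 2.15 to 3.78 FPKM in CrT+/y animals (log2 fold change -0.31, limma adjusted p = 0.327). Leaving out CrT+/y replicate 2 gave -0.12, and leaving out replicate 1 gave -0.51. *Gpx4*, the selenoenzyme that reduces lipid peroxides in membranes, was the most abundant peroxidase, at 238, 232, 206 and 242 FPKM in CrT-/y and 199, 191 and 225 FPKM in CrT+/y animals. CrT+/y replicate 3 was above CrT-/y replicate 2, and the log2 fold change of 0.16 was not called (limma adjusted p = 0.233). *Gpx3*, the secreted peroxidase, ran from 2.30 to 5.66 FPKM within CrT+/y and from 3.38 to 3.98 FPKM within CrT-/y animals, so its log2 fold change of 0.07 had a wide interval (95% interval -0.47 to 0.62) and was -0.23 when CrT+/y replicate 3 was left out but 0.40 when replicate 2 was. *Gpx1*, the cytosolic enzyme, was not called. *Gpx3* and *Gpx8* were both highest in CrT+/y replicate 2, the animal with the high choroid plexus and ependyma markers, whose part in these values was not tested.

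None of the 6 peroxiredoxins was called, and 5 of 6 had a log2 fold change above 0, with a median of 0.10. Among all 12988 tested genes, 5434 were above 0. The count of peroxiredoxins above 0 was 6 after quantile normalization, median centring and upper quartile scaling, and 4 after the length correction. Peroxiredoxins are abundant thiol peroxidases that mostly take their electrons from thioredoxin. *Prdx1*, the cytosolic NRF2 target whose promoter match is shown above, was at 77.5, 77.9, 73.1 and 74.5 FPKM in CrT-/y and 64.5, 64.2 and 72.9 FPKM in CrT+/y animals. Its groups did not overlap, though CrT+/y replicate 3 came close to the lowest CrT-/y animal. The log2 fold change of 0.17 missed the threshold (limma adjusted p = 0.125, exact permutation p = 0.0286) and was called in 6 of 20 alternative analyses. *Prdx5*, found in mitochondria, peroxisomes and cytosol, was the most abundant, at 205, 195, 186 and 204 FPKM in CrT-/y and 182, 159 and 197 FPKM in CrT+/y animals (log2 fold change 0.14, limma adjusted p = 0.276). The other 4, mitochondrial *Prdx3*, cytosolic *Prdx2* and *Prdx6*, and *Prdx4* of the endoplasmic reticulum, had log2 fold changes from -0.03 to 0.15.

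Among thioredoxins and their reductases, *Txn1* rose and the other 3 were not called. *Txn1* (chr4:57943373-57956411, minus strand) reduces peroxiredoxins and protein disulfides in the cytosol and nucleus. Its level was 36.4, 43.1, 42.1 and 45.5 FPKM in CrT-/y and 29.7, 25.1 and 37.9 FPKM in CrT+/y animals. CrT+/y replicate 3 was above CrT-/y replicate 0, so the groups overlapped, with means of 41.8 ± 3.86 (SD, n = 4) and 30.9 ± 6.47 FPKM (SD, n = 3). The log2 fold change was 0.45 ± 0.13 (SE, limma adjusted p = 0.0831), and the exact permutation test of the log2 FPKM values gave p = 0.0857. It was called in 13 of 20 alternatives. *Txn2*, the mitochondrial thioredoxin, was the most abundant of these 4 genes, at 68.4, 66.0, 68.1 and 68.5 FPKM in CrT-/y and 75.1, 66.6 and 74.2 FPKM in CrT+/y animals (log2 fold change -0.08, limma adjusted p = 0.376). *Txnrd2*, its reductase, was at 5.69, 5.32, 5.71 and 5.84 FPKM in CrT-/y and 4.85, 4.82 and 5.31 FPKM in CrT+/y animals. The groups of *Txnrd2* did not overlap by the narrowest of margins, and its log2 fold change of 0.17 was not called (limma adjusted p = 0.191, exact permutation p = 0.0571). *Txnrd1*, the cytosolic reductase, was the lowest of the 4 at a log2 fold change of -0.10.

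Of the glutaredoxins, *Glrx3* fell. This cytosolic and nuclear glutaredoxin with several domains (chr7:137437614-137468594, plus strand) carries iron-sulfur clusters rather than acting mainly as a reductase. It was at 19.1, 19.3, 19.7 and 19.9 FPKM in CrT-/y and 24.2, 22.4 and 25.4 FPKM in CrT+/y animals. The CrT-/y animals lay close together and all below the CrT+/y animals, with means of 19.5 ± 0.359 (SD, n = 4) and 24.0 ± 1.5 FPKM (SD, n = 3). The log2 fold change was -0.30 ± 0.06 (SE, limma adjusted p = 0.0371, exact permutation p = 0.0286), and it was called in 16 of 20 alternatives. *Glrx*, the cytosolic glutaredoxin that removes glutathione from proteins, had the highest level of the 4, at 29.7, 29.1, 29.5 and 34.6 FPKM in CrT-/y and 42.3, 34.9 and 33.3 FPKM in CrT+/y animals (log2 fold change -0.26, limma adjusted p = 0.140). *Glrx5* and *Glrx2*, both mitochondrial, were not called.

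No gene of glutathione synthesis and reduction was called. *Gss*, glutathione synthetase, performs the final step and was at 4.87, 4.53, 4.96 and 4.58 FPKM in CrT-/y and 5.03, 5.47 and 5.58 FPKM in CrT+/y animals. The CrT-/y animals were all lower than the CrT+/y animals, though *Gss* in CrT-/y replicate 2 was close to CrT+/y replicate 1, and the log2 fold change of -0.17 was not called (limma adjusted p = 0.198, exact permutation p = 0.0286). *Gclm*, the modifier subunit of the rate-limiting glutamate-cysteine ligase, was the most abundant of the 4 genes, at 16.6, 19.0, 16.6 and 17.9 FPKM in CrT-/y and 20.2, 19.4 and 17.6 FPKM in CrT+/y animals (log2 fold change -0.12, limma adjusted p = 0.318). The catalytic subunit *Gclc* and glutathione reductase, *Gsr*, had overlapping groups.

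Glutathione transferases join glutathione to electrophiles, and 1 of the 10, *Gstk1*, rose. It lies at chr6:42245935-42250447 (plus strand) and was at 7.56, 6.06, 7.16 and 6.28 FPKM in CrT-/y and 4.39, 4.91 and 4.36 FPKM in CrT+/y animals. Every CrT-/y animal was above every CrT+/y animal, with means of 6.77 ± 0.711 (SD, n = 4) and 4.56 ± 0.307 FPKM (SD, n = 3). The log2 fold change was 0.56 ± 0.10 (SE, 95% interval 0.34 to 0.77, limma adjusted p = 0.0303, exact permutation p = 0.0286). It was the only one of the 42 genes that was called in all 20 alternative analyses, with log2 fold changes from 0.416 to 0.618 and adjusted p from 0.0172 to 0.0988. The microsomal transferase *Mgst1* and the cytosolic *Gstp1* had the next largest differences in this group. *Mgst1* was at 7.59, 9.41, 7.91 and 6.49 FPKM in CrT-/y and 4.65, 5.97 and 7.03 FPKM in CrT+/y animals (log2 fold change 0.42, limma adjusted p = 0.139). *Gstp1* was at 88.8, 83.6, 87.7 and 87.8 FPKM in CrT-/y and 61.2, 67.0 and 87.1 FPKM in CrT+/y animals (0.29, limma adjusted p = 0.133). In both genes CrT+/y replicate 3 lay within the CrT-/y range and the other CrT+/y animals below it. The most abundant member on average over all animals, *Gstm1*, was at 133, 132, 139 and 129 FPKM in CrT-/y and 124, 123 and 140 FPKM in CrT+/y animals. Its log2 fold change of 0.05 (limma adjusted p = 0.659) was -0.000742 after the length correction. The other 6 had log2 fold changes from -0.14 (*Gstm7*) to 0.17 (*Mgst3*), and 8 of the 10 were above 0, against 9 after quantile normalization, median centring and upper quartile scaling and 6 after the length correction. Among all 12988 tested genes, 5434 were above 0 in the main fit.

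By place in the cell, 1 of the 7 genes listed here as mitochondrial rose (*Gstk1*) and 1 fell (*Sod2*), with a median log2 fold change of 0.11. *Prdx5*, found in mitochondria and elsewhere, was not in that list. In the endoplasmic reticulum, 1 of 3 genes fell (*Gpx7*). The selenoproteins *Gpx1*, *Gpx3*, *Gpx4*, *Txnrd1* and *Txnrd2* had log2 fold changes from -0.10 to 0.17 and none was called. The 42 genes had a median transcript length of 1561 bp, against 3085 bp over tested genes, and 35 of them were shorter than that median. After correction for transcript length the median log2 fold change of the 42 genes was -0.01 rather than 0.05, and the same 6 genes were called. The log2 fold changes of the abundant *Gpx4* and *Prdx5* were then 0.10 and 0.09.

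**Figure D3:**
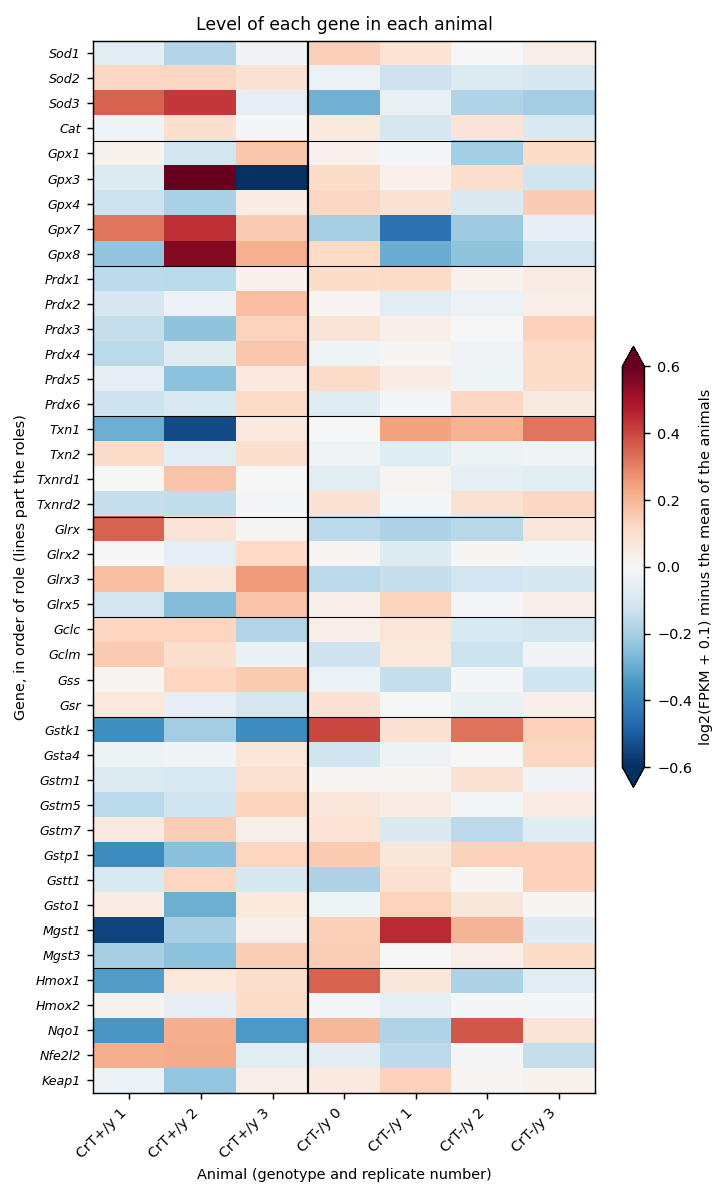
Log2 FPKM of each of the 42 genes (y axis, by role) in each of the 7 animals (x axis), as the difference from the gene's mean over animals, with colours clipped at 0.6 in either direction. CrT+/y replicate 3 differs from the other 2 CrT+/y animals in many rows, with a median deviation of 0.06 against -0.06 and -0.05.

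CrT+/y replicate 3 differed from the other wild-type animals in these genes. Its median log2 deviation from each gene's mean over animals was 0.06, against -0.06 and -0.05 in CrT+/y replicates 1 and 2 and -0.01 to 0.03 in the CrT-/y animals. Over all tested genes the medians were 0.03, 0.02 and 0.01 in CrT+/y replicates 1 to 3, so the median of replicate 3 did not stand apart there. Replicate 3 was still the CrT+/y animal closest to the CrT-/y mean in 44.6% of all tested genes, against 25.0% and 30.4% for replicates 1 and 2. It lay inside the CrT-/y range in 19 of the 42 genes (45.2%, against 41.2% of all tested genes), while replicates 1 and 2 did so in 11 and 9 genes (26.2% and 21.4%, against 30.8% and 33.4%), and over the list its share was near that of all genes. Without it, 20 of the 42 genes were called (47.6%), 14 higher and 6 lower, where 28.7% of all tested genes were called, 10.3% higher and 18.4% lower. Groups did not overlap in 26 of the 42 genes in that case, against 43.7% of all tested genes. All 6 genes called with every animal were among the 20. The further genes that rose were *Sod1*, *Gpx4*, *Prdx1*, *Prdx3*, *Prdx5*, *Txnrd2*, *Glrx5*, *Gstm5*, *Gstp1*, *Mgst1*, *Mgst3* and *Keap1*, and the further genes that fell were *Glrx* and *Nfe2l2*. *Gstp1* had a log2 fold change of 0.44 (limma adjusted p = 0.00446), *Mgst1* of 0.55, *Prdx1* of 0.23 and *Nfe2l2* of -0.31 (limma adjusted p = 0.0260) in these 6 animals. With the length correction as well, an analysis chosen after the data were seen, 17 genes were called, 10 higher and 7 lower, against 25.0% of all tested genes. What sets replicate 3 apart was not tested, and nothing in its labels marks it.

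**Figure D4:**
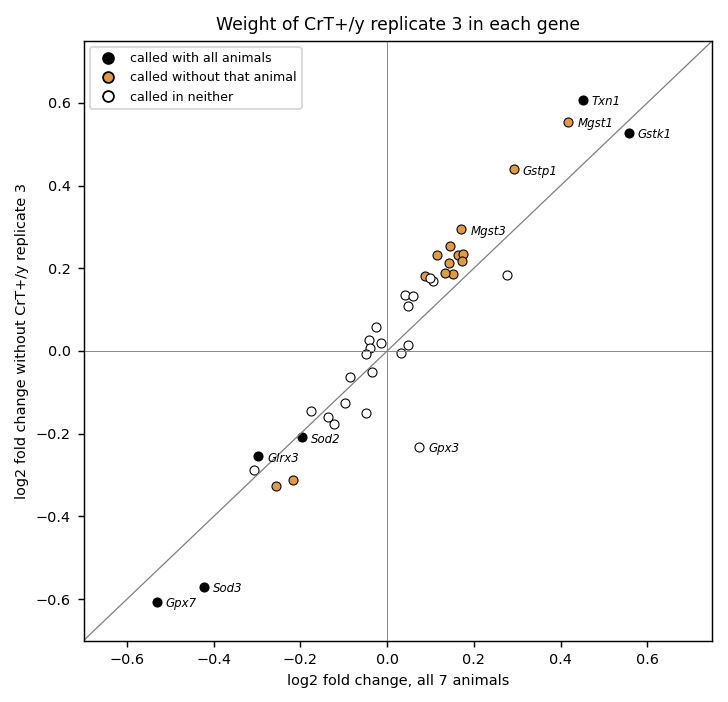
Log2 fold change of the 42 genes with all 7 animals (x axis) and without CrT+/y replicate 3 (y axis), each point 1 gene, with colour for the call. The call count goes from 6 to 20, and *Gstp1* moves from 0.29 to 0.44 and *Nfe2l2* from -0.22 to -0.31; the plotted fits share 6 animals.

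Beyond the 42 genes, 86 others of the same pathways were listed, of which 73 were tested, 6 rose and 3 fell (12.3% called, against 10.1%). *Txnip*, the protein that binds and inhibits reduced thioredoxin, was at 12.9, 12.3, 12.8 and 12.1 FPKM in CrT-/y and 7.56, 8.72 and 7.57 FPKM in CrT+/y animals. Its groups were far apart compared with their spread, with a log2 fold change of 0.65 ± 0.07 (SE, limma adjusted p = 0.00597), and it was called in all 20 alternatives. *Ccs*, the copper chaperone that loads *Sod1*, had a log2 fold change of 0.34 (limma adjusted p = 0.0640). *Gstz1*, a transferase of tyrosine breakdown, and *Gstm6* had log2 fold changes of 0.43 and 0.56 (limma adjusted p = 0.0334 and 0.0664). Of the 18 genes of their list 8 were tested, 7 transferase genes and the thioredoxin reductase gene *Txnrd3*. All 8 had log2 fold changes above 0, as did 5434 of the 12988 tested genes. Their mean levels ran from 1.23 (*Gstt2*) to 14.8 FPKM (*Gstz1*), and the count was not repeated with the length correction. The gamma-glutamyltransferase family gene *Ggt7* (0.26, limma adjusted p = 0.0714) and the ferritin light chain gene *Ftl1* (0.32, limma adjusted p = 0.0989) also rose. *Nnt*, the mitochondrial transhydrogenase that makes NADPH, fell (-0.35, limma adjusted p = 0.0609), as did *Mafg*, the small MAF partner of NRF2 (-0.31, limma adjusted p = 0.0672), and *Sepp1*, the secreted selenium carrier now named *Selenop* (-0.20, limma adjusted p = 0.0953). *Gstz1* was called in 19 of 20 alternatives, *Ccs* and *Nnt* in 11, *Ftl1* and *Ggt7* in 10, *Gstm6* in 10 of 19, *Mafg* in 9 and *Sepp1* in 7. No gene of the methionine sulfoxide reductase or glyoxalase lists was called (5 and 6 tested). C57BL/6J mice are known to carry a deletion in *Nnt*, and both groups were on that background.

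Some values depend on how reads were assigned. The annotated bodies of 14 of the 42 genes overlap another gene, among them *Sod1*, *Gss*, *Prdx5*, *Txnrd2*, *Gclm*, *Hmox2*, *Nfe2l2* and *Keap1*, and the sources used here do not say whether strand was used in counting, so those values are uncertain. None of the 6 called genes has such an overlap. Transferase genes such as *Gstp1* and the *Gstm* family have near-identical copies, and only uniquely aligned reads were kept, so part of their reads may be missing.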

How the data were processed

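Per the labels and the study's methods, cortical RNA of 7 mice (4 CrT-/y, 3 CrT+/y) was made into 1 library per animal and sequenced in paired ends. Reads were aligned by the authors to mm10, and FPKM values per gene symbol, from uniquely aligned reads, were deposited. The table holds no fragment counts. Depth was taken from it relative to CrT-/y replicate 0 (0.871 to 1.25), the read numbers that the study lists per library were not used here, and no counting interval is given.

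From these values limma 3.58.1 (R 4.3.3) was fitted to log2(FPKM + 0.1) with genotype as the only term, over the 12988 genes whose mean reached 1 FPKM, with a variance trend and Benjamini-Hochberg adjustment. Genes were called at an adjusted p under 0.1, the threshold that the study's methods name with limma. Fold changes are on the log2(FPKM + 0.1) scale, which understates the change of low genes. Exact two-sided permutation tests of the difference in mean log2(FPKM + 0.1) used the 35 splits of the 7 animals. Named genes were the called genes, those whose groups did not overlap, the most abundant gene of each role, and called genes of the other pathway lists, with *Slc6a8*; *Nfe2l2*, *Keap1*, *Hmox1*, *Nqo1*, *Gpx3*, *Gpx8*, *Gstp1*, *Mgst1* and other genes named without belonging to these were chosen after their values were seen. The 42 genes and the other lists were chosen with earlier results of these data known. Gene positions and lengths came from GENCODE M21 (GRCm38), promoter windows from RefSeq (GRCm38.p6). Of the listed genes of all lists, 7 were found under an older symbol and 1 was not matched. Every sample column of the table was used. The alternatives were other pseudocounts, filters and scalings, a length correction, array weights, no variance trend, a replicate block and leaving out each animal.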

Additional observations from a re-analysis of the deposited data

Results flagged for a closer look

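In 3 of 43 genes examined (the 42 genes and *Slc6a8*), 1 CrT-/y animal lay apart from the other 3 by Dixon's test of the gap over the range, and chance alone gives such an animal in about 1 in 20 groups. *Txnrd1* was at 18.2 FPKM in CrT-/y replicate 1 and at 17.27 to 17.35 FPKM in the others (ratio 0.918). *Glrx* was at 34.6 FPKM in CrT-/y replicate 3 and at 29.1 to 29.7 FPKM in the others (0.888). *Hmox2* was at 39.6 FPKM in CrT-/y replicate 1 and at 40.8 to 41.0 FPKM in the others (0.842). None of the 3 genes was called.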

How the results depend on the processing

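With all animals 6 of the 42 genes (2 higher, 4 lower) and 1318 of all tested genes were called. The members called were 10 with array weights and 3 with no filter (higher 5 and 1, lower 2 with no filter), 4 were higher after quantile normalization and 4 after upper quartile scaling, 1 with no variance trend, and 2 were lower after median centring and 2 after upper quartile scaling. The shares of members called were 23.8% with array weights and 7.14% with no filter, against 14.6% and 3.82% of all tested genes. After quantile normalization, upper quartile scaling and median centring they were 16.7%, 14.3% and 11.9%, against 8.34%, 9.27% and 7.83%. With no variance trend 9.52% were called, against 7.12%. With no filter 730 genes were called in all and 2 of the other pathway genes instead of 9. The median log2 fold change of the 42 genes, 0.05, was -0.0115 with the length correction and 0.107 with upper quartile scaling. Leaving out 1 animal gave 64 to 3736 genes called in all, 1 to 20 of the 42 (1 to 14 higher, 0 to 6 lower), a median of -0.000813 to 0.0495, 9 to 26 genes whose groups did not overlap (8 with all animals) and 1 to 20 other pathway genes. The lowest overall count was without CrT-/y replicate 1 and the highest without CrT+/y replicate 3. In the highest case the groups of 26 of the 42 genes did not overlap, against 43.7% of all tested genes. Without CrT+/y replicate 3 and with the length correction, chosen after the data were seen, 3231 genes, 17 of the 42 (10 higher, 7 lower) and 20 other pathway genes were called, and 20 of the 42 did not overlap.

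The replicate numbers did not pair the animals (same-numbered animals deviated from their group means with correlations of -0.078, 0.046 and -0.051 across genes). CrT-/y replicate 0 has no CrT+/y animal of the same number, so the fits with a replicate block left it out. With a replicate block 583 genes, 2 of the 42 (none lower) and 3 other pathway genes were called, and with the block and the length correction 571, 3 (1 lower) and 2, with a median of -0.00464. Leaving out CrT-/y replicate 0 without a block gave 614 genes and 4 of the 42. *Gstm1* turned to -0.000742 with the length correction, and *Hmox2* to 0.00447 and 0.0129 after quantile normalization and upper quartile scaling. *Gpx3* was -0.064 with array weights and -0.231 to 0.399 with 1 animal left out (-0.291 without CrT+/y replicate 3 and with the length correction). *Hmox1* was -0.00683 with the block, which leaves out CrT-/y replicate 0, the animal with its highest level (3.09 FPKM). *Hmox1* was -0.0453 with the block and the length correction, and -0.0414 to 0.178 with 1 animal left out. The cause of these moves was not tested.

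The 7 animals limit the precision, and the exact test cannot go below p = 0.0286. The FPKM table holds no fragment counts, so no counting error is given for low genes such as *Gpx7*.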
